A study of Homo sapiens with 4 samples.

Results

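The genes described here are 10 regulators of epithelial identity: the Grainyhead-like factors GRHL1, GRHL2 and GRHL3, the zinc finger factors OVOL1 and OVOL2, the splicing regulators ESRP1 and ESRP2, the ETS factors EHF and ELF3, and the Krüppel-like factor KLF5. The regions described are the 1 kb tiles of the deposited methylation tables that overlap the GENCODE span of each gene on GRCh37 (hg19), extended by 5 kb on each side. This rule gave 42 distinct tiles of the 72455 listed in at least 1 table, and at least 1 tile in 9 of the 10 genes. KLF5 had none.

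DNA methylation had been measured by reduced representation bisulfite sequencing (RRBS), which reads CpG-rich ends of MspI fragments, in clones of SKOV3, an established line of ovarian cancer whose unmodified cells look mesenchymal (M phenotype). The study asked which methylation changes accompany the shift of these cells towards an epithelial (E) phenotype when the antigen receptor LY75 is lost. There were 4 libraries, 1 per clone. ShC-S carried a control shRNA and ShLy75-S an shRNA against LY75. Ly75-KO-S had lost LY75 through CRISPR, and Ly75-OV-S re-expressed an shRNA-resistant LY75 in cells that also carried the LY75 shRNA. ShC-S and Ly75-OV-S had the M phenotype, and ShLy75-S and Ly75-KO-S the E phenotype. All were cultured SKOV3 cells with no other treatment named for these libraries. The clones of the knockout comparison also differ in whether they carry an shRNA. As each arm is a single clone, the effect of LY75 cannot be told apart from other differences between clones.

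The deposited tables compared ShC-S with ShLy75-S (the knockdown comparison), Ly75-OV-S with Ly75-KO-S (the knockout comparison), and both M clones with both E clones (the mix). The tables hold no level of any single library, no read counts and no coverage, so the value given for each tile is the authors' difference in methylation level between clones, in percentage points, without an SD, and the depth behind it is unknown. A tile appears in a table only if that difference reached 25 points and also passed the authors' q-value. A tile that is not listed may therefore have differed by less, or not have been covered. No test between conditions could be made, and the counts below describe these libraries. A tile is called hypermethylated where its level was higher in the E clone or clones and hypomethylated where it was lower. The order of subtraction followed the directions that the study states for 10 of its own genes. For each, the knockdown tile with the largest absolute difference within 2 kb of a transcription start site (TSS) was checked. All 10 had the stated direction in that tile, and their other tiles were not checked. The sign of the knockout table follows from the mix, in which a least-squares fit over 4250 tiles gave it a weight of 0.435 beside 0.534 for the knockdown table, if the mix is composed as the study describes. The name under which the knockout table was deposited puts Ly75-KO-S first, whereas that of the knockdown table puts ShC-S first, so by the order of the names alone every knockout direction given here would be reversed. If all tables had been subtracted the other way, all directions would be reversed.

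These proteins act at different steps of the same programme. The GRHL factors bind and activate enhancers and promoters of epithelial genes such as CDH1, which encodes E-cadherin, and OVOL1 and OVOL2 repress inducers of epithelial-mesenchymal transition (EMT) such as ZEB1. ESRP1 and ESRP2 are RNA-binding proteins that keep transcripts such as FGFR2, CD44, CTNND1 and ENAH in their epithelial splice forms. EHF, ELF3 and KLF5 drive genes of epithelial cells. Methylation of CpG-dense promoters is commonly found at genes that are not transcribed. No transcript or protein level of these genes is part of the deposited tables.

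The DNA behind the tiles can be shown as the MspI fragments of 40 to 220 bp that the method selects. The following are examples from tiles on which the results turn, read from GRCh37 on the plus strand, 5′ to 3′, with every CpG in capitals. The tables do not give values per fragment, and a tile can hold several. The first 2 lie in CpG-dense tiles upstream of ESRP2 and OVOL1, and the last 2 in tiles with large differences and few CpGs on such fragments.
ESRP2, chr16:68273729-68273938, upstream: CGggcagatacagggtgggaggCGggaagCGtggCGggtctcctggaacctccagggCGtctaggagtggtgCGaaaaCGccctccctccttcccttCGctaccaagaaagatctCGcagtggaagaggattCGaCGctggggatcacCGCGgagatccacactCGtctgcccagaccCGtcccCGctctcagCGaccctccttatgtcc
OVOL1, chr11:65549011-65549167, upstream: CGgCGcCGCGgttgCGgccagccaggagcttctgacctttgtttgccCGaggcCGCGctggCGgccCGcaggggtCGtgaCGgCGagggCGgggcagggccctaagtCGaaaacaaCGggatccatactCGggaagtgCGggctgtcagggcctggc
EHF, chr11:34654147-34654232, at the start of a shorter transcript: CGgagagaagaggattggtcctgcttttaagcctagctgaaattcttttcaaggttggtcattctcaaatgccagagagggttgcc
GRHL3, chr1:24666759-24666877, gene body: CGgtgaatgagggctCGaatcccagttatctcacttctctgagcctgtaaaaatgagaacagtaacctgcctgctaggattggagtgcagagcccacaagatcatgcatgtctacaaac
The ESRP2 fragment holds 17 CpGs in 210 bp and the upstream OVOL1 fragment 18 in 157 bp, whereas the EHF fragment holds 1 CpG in 86 bp and the GRHL3 fragment 2 in 119 bp. A CpG is called reachable below where it lies within the 50 bases read from either end of such a fragment, and in the EHF tile this holds for 1 of 10 CpGs.

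In the knockdown comparison, 30 tiles in 8 of the 10 genes were listed, of which 22 were hypermethylated and 8 hypomethylated in ShLy75-S. Of all 20090 protein-coding genes, 60.5% had a listed tile in the same kind of window, so having one was common. The share of hypermethylated tiles was 73.3%, beside 64.7% over all 51243 tiles of that table. The absolute differences ranged from 27.5 to 100 points with a median of 50.8, close to the median of 50.0 over the whole table. ELF3 and KLF5 had no tile in this comparison.

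The knockout comparison listed fewer member tiles. It held 11 tiles in 6 genes (background 46.9% of coding genes), 6 hypermethylated and 5 hypomethylated in Ly75-KO-S. The hypermethylated share was thus 54.5%, beside 54.7% of all 28282 tiles. The mix held 16 tiles in 8 genes (background 38.4%), 8 in each direction, beside 65.0% hypermethylated over its 20986 tiles. The median absolute differences were 49.4 points in the knockout comparison and 29.9 in the mix, beside 41.9 and 36.9 over all tiles of those tables. The mix shares its libraries with both other tables and is no independent measurement. The plot of all member tiles by gene shows that GRHL3, ESRP1, ESRP2 and OVOL1 had mostly hypermethylated tiles, whereas OVOL2, EHF, GRHL2 and ELF3 had tiles in both directions.

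**Figure D1:**
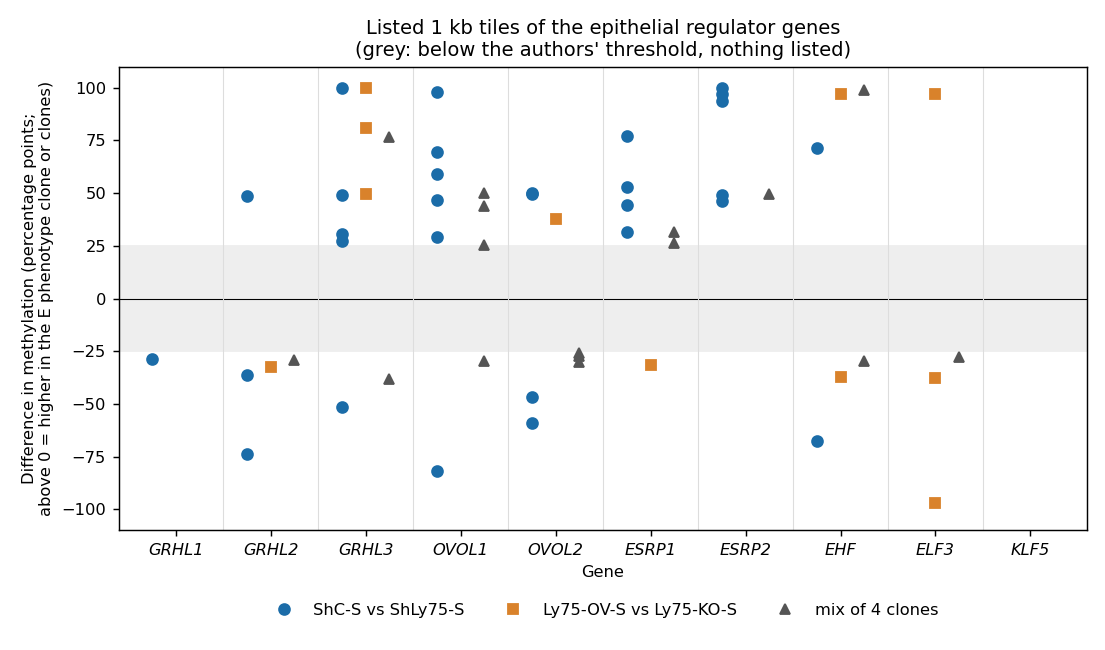
Difference in methylation (y axis, percentage points, above 0 = higher in the E clone or clones) of every listed tile of the 10 genes (x axis); each point is 1 tile in 1 table, and the grey band marks the range under 25 points in which nothing is listed. The 5 knockdown points of ESRP2 and the 4 of ESRP1 are all above 0, and KLF5 has no point.

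Near the start sites the knockdown comparison was fullest. Within 2 kb of any annotated TSS of their gene it listed 19 tiles in 7 genes (background 37.6% of coding genes), 16 of them hypermethylated. The knockout comparison listed 3 such tiles in 3 genes (background 21.5%) and the mix 10 tiles in 7 genes (background 20.0%). At 1 kb or less from the TSS of the canonical transcript, 10 tiles were listed in the knockdown comparison, 8 of them hypermethylated, and 0 in the knockout comparison. The 2 that were hypomethylated belonged to GRHL1 and OVOL2.

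The splicing regulators carried the longest stretches. In ShLy75-S, ESRP2 (chr16:68262936-68272005, minus strand) was hypermethylated over 5 adjacent tiles, from chr16:68269001 to 68274000. The tile on the 3′ side of the TSS, with coding sequence and UTR, was higher by 49.3 points, and the tile that holds the TSS by 46.3. The 3 tiles upstream of this canonical TSS were higher still, by 97.2, 100 and 93.9 points, and the nearer 2 hold start sites and UTR of other ESRP2 transcripts. These tiles hold between 42 and 103 CpGs each, of which 3 (in the tile at 100) to 59 are reachable. The tile that holds the canonical TSS and the next one upstream also overlap ENSG00000261469. The farthest tile upstream was listed in the mix too, at 49.4 points, and no tile of ESRP2 was listed in the knockout comparison.

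ESRP1 (chr8:95653302-95719694, plus strand) showed 4 adjacent hypermethylated tiles around its TSS in ShLy75-S, from chr8:95651001 to 95655000. From upstream to downstream they differed by 44.3, 52.8, 77.1 and 31.6 points, with the largest value in the tile that holds the TSS. These were all 4 of the reachable tiles within 2 kb of the canonical TSS. Of these, the farthest upstream and the one with the TSS were listed in the mix, at 26.4 and 31.4 points. The farthest upstream also overlaps LINC02894. In Ly75-KO-S the tiles around the TSS were not listed, and a different one, 16599 bp downstream in an intron, was lower by 31.4 points.

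Stretches of 4 or more adjacent tiles of 1 direction in the knockdown comparison were found in 2 of the 10 genes, the ESRP genes, and in 0.373% of all coding genes (75 of 20090). The length of 4 was chosen after these tiles had been seen, and adjacent tiles are not independent of each other. With at least 3 tiles the same 2 genes were found beside 1.91% of coding genes, and with at least 5 ESRP2 alone beside 0.0996%. All 4 splicing targets of the ESRP proteins had listed tiles in the knockdown comparison (background 60.5% of coding genes). Of these 9 tiles, 4 were hypermethylated (44.4%, beside 64.7% over all tiles) and 5 hypomethylated, so they held no shared direction.

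OVOL1 (chr11:65554534-65564685, plus strand), a repressor of EMT inducers, was the gene with the largest part of its reachable tiles listed, 7 of 9 over the tables. The tile that holds its TSS, with 128 CpGs of which 81 are reachable, was higher by 69.7 points in ShLy75-S and by 25.2 in the mix. The next tile downstream, in an intron, was higher by 46.9 points. The gene body followed the same direction: an intronic tile 5467 bp from the TSS was higher by 59.3 points (43.8 in the mix), a tile with coding sequence and UTR by 29.1, and a tile in the UTR near the 3′ end by 98.1 (50.1 in the mix). The tile near the 3′ end also overlaps ENSG00000255404. Upstream of the canonical TSS the direction was opposite. The tile at chr11:65549001-65550000, 4534 bp from the TSS, was lower by 81.7 points in ShLy75-S, and its neighbour was lower by 29.8 in the mix. Both upstream tiles also lie within 2 kb of a TSS of AP5B1, and cannot be assigned to OVOL1 alone. No tile of OVOL1 was listed in the knockout comparison.

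OVOL2 (chr20:17937623-18039832, minus strand), its close relative, had the opposite sign at its start. The tile that holds its TSS (67 CpGs, 51 reachable) was lower by 58.9 points in ShLy75-S and by 25.8 in the mix. In the knockout comparison a tile 1560 bp downstream in an intron was higher by 37.9 points in Ly75-KO-S. The other 4 tiles of its window lie beyond the canonical transcript, 3 of them along a long minor transcript and 1 past its end, in the 5 kb extension. Of these, the pair at the far end, which also overlaps SNX5, was higher by 49.6 and 50.0 points in ShLy75-S, a tile 60560 bp from the TSS was lower by 46.7 (27.4 lower in the mix), and a tile at chr20:17991001-17992000 was lower by 30.0 points in the mix alone. The tile lower by 46.7 has 11 CpGs, none of them reachable. The canonical start sites of OVOL1 and OVOL2 thus differed in opposite directions in the same pair of clones.

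**Figure D2:**
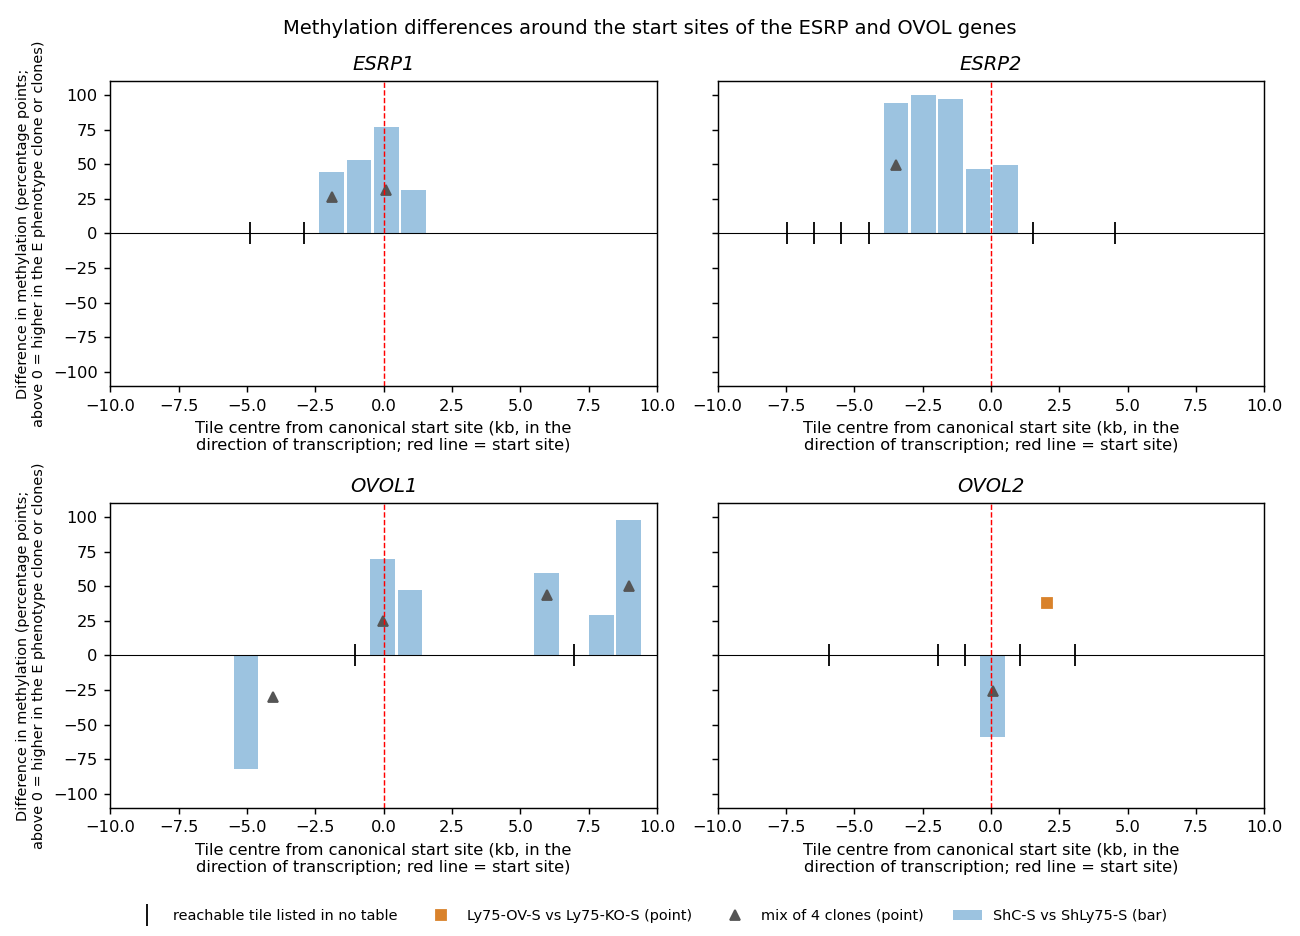
Difference in methylation (y axis, percentage points) against the distance of the tile centre from the canonical TSS (x axis, kb in the direction of transcription) for ESRP1, ESRP2, OVOL1 and OVOL2; bars are the knockdown comparison, squares the knockout comparison, triangles the mix, and ticks mark reachable tiles listed in no table. The bars over the TSS are at 77.1 (ESRP1), 46.3 (ESRP2) and 69.7 points (OVOL1) and at -58.9 for OVOL2.

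The GRHL factors showed no listed tile at the canonical TSS itself. GRHL1 (chr2:10091822-10142405, plus strand) had a single listed tile, 822 bp upstream of its TSS, which was lower by 28.6 points in ShLy75-S. This tile also overlaps ENSG00000287305. The tile that holds the GRHL1 TSS has 156 CpGs, 93 of them reachable, and was listed in no table.

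GRHL2 (chr8:102504667-102681954, plus strand), an activator of CDH1 and other junction genes, had 4 tiles, all at least 65334 bp downstream of its TSS. In ShLy75-S an intronic tile was higher by 48.4 points, and a second intronic tile was lower by 36.2. The tile just beyond the 3′ end was lower by 73.9 (29.2 lower in the mix). The tile at 48.4 has 5 CpGs, none of them reachable. In Ly75-KO-S a tile with coding sequence was lower by 32.6 points. Its TSS tile (47 CpGs, 4 reachable) was not listed.

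GRHL3 (chr1:24526048-24690972, plus strand) had 8 tiles, the most of any member. In an intron 1154 bp downstream of the canonical TSS, a tile was lower by 51.6 points in ShLy75-S and by 38.3 in the mix, whereas the next tile, 2154 bp from the TSS, was higher by 49.2. The first of these has 13 CpGs with 1 reachable and the second 74 with 31, and both overlap the antisense gene GRHL3-AS1. RRBS reads DNA and does not assign a tile to either strand's gene. A coding tile 20154 bp downstream, at chr1:24666001-24667000, was higher by 100 points in Ly75-KO-S and by 76.6 in the mix.

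The other 5 GRHL3 tiles lie 33847 to 112847 bp upstream of the canonical TSS, in an intron of a long minor transcript. They were higher by 30.6, 27.5 and 100 points in ShLy75-S and by 49.4 and 81.0 in Ly75-KO-S, each in 1 comparison alone, and all were hypermethylated. In 4 of these 5 tiles at most 2 CpGs are reachable. The farthest upstream also overlaps LINC02800. With the canonical transcripts alone, an alternative added after the data had been seen, 24, 9 and 14 member tiles remained in the knockdown comparison, the knockout comparison and the mix, and the hypermethylated share in the knockout comparison was 44.4% in place of 54.5%.

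EHF (chr11:34642640-34684835, plus strand) was the only one of the 10 genes in which the same tiles were listed in both single comparisons, which share no library. The tile at chr11:34654001-34655000 lies 11361 bp downstream of the canonical TSS and holds the start and first coding exon of a shorter transcript. It was higher by 71.5 points in ShLy75-S, by 96.8 in Ly75-KO-S and by 98.9 in the mix. A second tile, at chr11:34672001-34673000 in an intron, was lower by 67.6 points in ShLy75-S, by 37.3 in Ly75-KO-S and by 29.4 in the mix. Each tile therefore kept its direction in both E clones. Across coding genes, 1.94% (389 of 20090) had 2 or more tiles listed in both single comparisons with the same direction in each. Both EHF tiles have 10 CpGs, with 1 and 2 reachable.

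These 2 tiles were 6.67% of the member tiles of the knockdown comparison and 18.2% of those of the knockout comparison. Over all tiles, 8345 were listed in both, or 16.3% and 29.5%, and 52.6% of them had the same direction.

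ELF3 (chr1:201977073-201986311, plus strand) was, in contrast, listed in the knockout comparison and the mix but not in the knockdown comparison. In Ly75-KO-S, a tile 4715 bp upstream of the canonical TSS was higher by 96.8 points and a tile just beyond the 3′ end, 7286 bp downstream of the TSS, was lower by 96.8. A tile 1715 bp upstream, which holds the TSS of another ELF3 transcript, was lower by 37.7, and a coding tile was lower by 27.5 in the mix alone. The upstream tile at 96.8 also overlaps RNPEP and ELF3-AS1 and has 21 CpGs, of which none is reachable on a fragment of 40 to 220 bp. The tile 1715 bp upstream also overlaps ELF3-AS1, and the coding tile overlaps ENSG00000249007. The difference in listing between the comparisons was not tested.

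KLF5 (chr13:73629114-73651679, plus strand) had no listed tile although it was well placed to be read: 9 tiles of its window are reachable, and the tile that holds its TSS has 122 CpGs, 85 of them reachable. Its coverage in the libraries is unknown.

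How much of each window can be read at all was taken into account through the reachable tiles. The 10 windows hold 147 tiles with at least 1 reachable CpG. Of these, 28 (19.0%, 95% Wilson interval 13.5 to 26.2) were listed in the knockdown comparison, beside 11.8% of the reachable tiles of all coding gene windows. ESRP1, ESRP2 and OVOL1 held 4, 5 and 6 of the 28, with 14, 12 and 9 reachable tiles in their windows. In the knockout comparison 10 (6.80%, 3.74 to 12.1) were listed, beside 6.17%, and in the mix 15 (10.2%, 6.28 to 16.2), beside 4.89%. The intervals cover counting error only and take neighbouring tiles as independent, which they are not. Around the canonical start sites, 13 of the 35 reachable tiles within 2 kb were listed in the knockdown comparison, 8 of them at the ESRP genes, beside 14.9% of such tiles over all coding genes. In the knockout comparison 2 were listed, beside 5.04%, and in the mix 5, beside 6.45%.

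**Figure D3:**
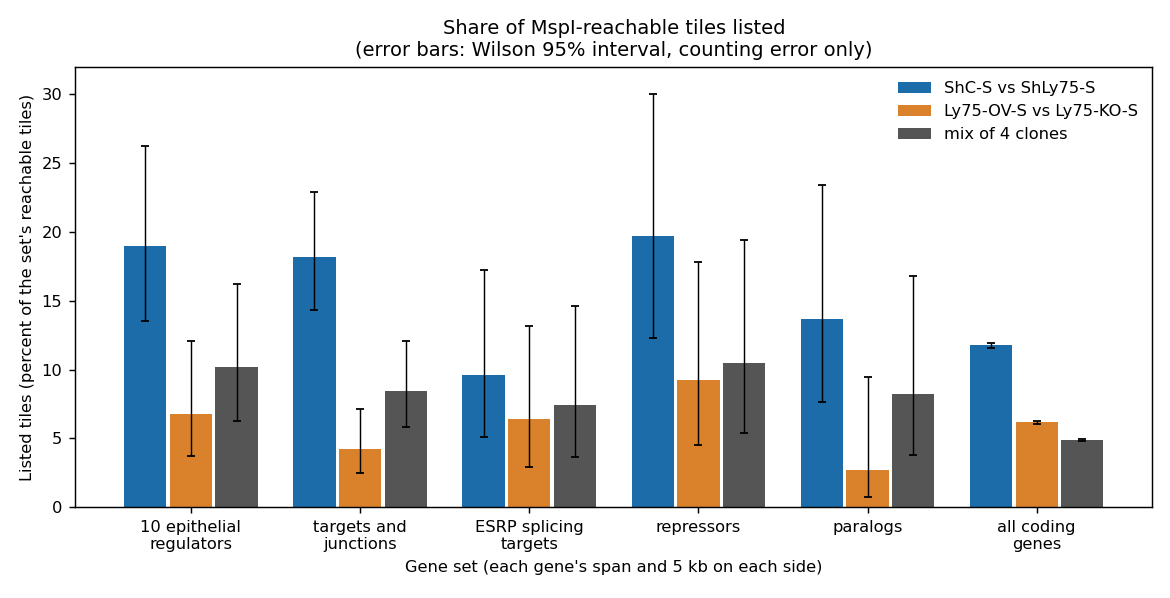
Percent of reachable tiles that are listed (y axis) for the 10 regulators, 4 comparison lists and all coding genes (x axis), in the knockdown comparison (blue), the knockout comparison (orange) and the mix (grey); error bars are 95% Wilson intervals. The regulators stand at 19.0%, 6.80% and 10.2%, and all coding genes at 11.8%, 6.17% and 4.89%.

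The members were also split by CpG density. Of the 19 member tiles with 20 or more CpGs in the knockdown comparison, 15 were hypermethylated (78.9%), and of the 11 with fewer, 7 (63.6%), beside 67.5% and 61.9% over all tiles of that table. Tiles over 10 kb from the canonical TSS numbered 11 in the knockdown comparison and 7 in the knockout comparison. Most of the knockout tiles were thus far from the canonical start sites. Within 5 kb of any annotated TSS of their gene, however, lay 6 of the 11 knockout tiles.

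In both single comparisons the 21 epithelial target and junction genes were close to the background in direction. In the knockdown comparison 17 of them (background 60.5% of coding genes) had listed tiles, 39 hypermethylated and 18 hypomethylated, a share of 68.4% beside 64.7% over all tiles. In the knockout comparison 9 (background 46.9%) had 7 hypermethylated and 8 hypomethylated tiles, a share of 46.7% beside 54.7%. In the mix 14 (background 38.4%) had 21 hypermethylated and 6 hypomethylated tiles, a share of 77.8% beside 65.0%. CDH1 was hypermethylated in the tile of its TSS, at chr16:68771001-68772000 with 82 CpGs, by 73.6 points in ShLy75-S and 43.2 in the mix. In the knockout comparison this tile was not listed. Of the 4 CDH1 tiles that were, those within 2 kb of a TSS were higher by 34.7 and 40.4 points in Ly75-KO-S. They start at chr16:68800001 and chr16:68859001, near other start sites than that of the first tile, and hold 20 and 2 CpGs. The other CDH1 tiles were lower by 35.6 and 58.0. The tile at 40.4 was also higher in ShLy75-S, by 62.7. These directions rest on the order of subtraction given above. EPCAM, an epithelial adhesion molecule, was lower by 31.7 points in ShLy75-S in a tile 367 bp from a TSS, and higher by 42.0 in a tile farther away. Earlier work cited by the study reported that LY75 depletion induced E-cadherin and EpCAM in SKOV3 cells. How the CDH1 and EPCAM tiles relate to those levels was not tested. LLGL2, ST14 and TJP3 each had a tile at a TSS that was higher in ShLy75-S (63.2, 27.1 and 25.9 points) and lower in Ly75-KO-S (50.0, 44.7 and 31.3 points lower). In ShLy75-S, LLGL2 also had tiles 131 and 716 bp from a TSS, lower by 27.2 and higher by 44.1 points. Further ST14 tiles near a TSS were higher by 63 and 100 points in ShLy75-S, and every listed TJP3 tile was higher there. JUP, which encodes the junction protein plakoglobin, was higher by 38.3 points in ShLy75-S and lower by 62.0 in Ly75-KO-S, in different tiles near its start sites.

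The repressors of epithelial genes went the other way in the knockdown comparison. Listed tiles lay in 4 of these 6 genes (background 60.5% of coding genes). Of the 16 tiles, 1 was hypermethylated (6.25%) and 15 were hypomethylated in ShLy75-S, beside a hypermethylated share of 64.7% over all tiles. The regulators had 22 and 8 such tiles. In ZEB2 the tile that holds a TSS was lower by 91.9 points and one beside another TSS by 100, and in SNAI1 the TSS tile was lower by 43.8. ZEB2 and SNAI1 were named after their values had been seen. The exception was TWIST1, whose TSS tile was higher by 33.6 points in ShLy75-S, 60.2 in Ly75-KO-S and 44.3 in the mix, while its other 4 knockdown tiles were lower. In the knockout comparison 3 of these genes (background 46.9% of coding genes) had listed tiles. They were 4 hypermethylated and 3 hypomethylated tiles, a share of 57.1% beside 54.7% over all tiles. ZEB1 and SNAI2 had no listed tile. The same earlier work reported loss of SNAI1 and TWIST1 expression after LY75 depletion. How their tiles relate to that loss was not tested.

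**Figure D4:**
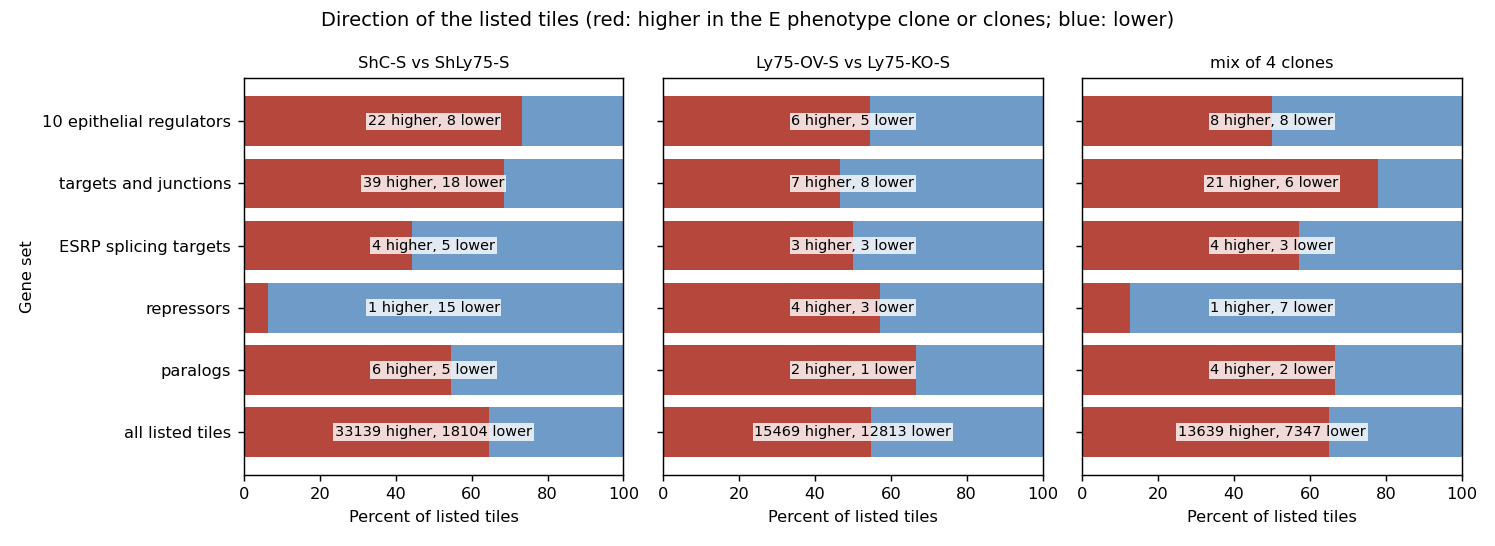
Percent of listed tiles (x axis) that were higher (red) or lower (blue) in the E clone or clones for the 10 regulators, 4 comparison lists and all listed tiles (y axis), with 1 panel per table and the tile counts printed. In the knockdown panel the regulators have 22 higher and 8 lower tiles and the repressors 1 and 15.

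Of 6 paralogs outside the members, 5 had tiles in the knockdown comparison (background 60.5% of coding genes). These were 6 hypermethylated and 5 hypomethylated tiles, beside a hypermethylated share of 64.7% over all tiles. Of the hypomethylated tiles, those lower by 41.5, 54.6 and 43.3 points belong to KLF4. It is one of the 10 genes whose stated direction had set the sign of this table. TFCP2, a relative of the GRHL factors that is active in many tissues, was lower near its TSS by 45.9 points in ShLy75-S, 94.3 in Ly75-KO-S and 62.6 in the mix. TFCP2L1 was higher by 50.0 points in ShLy75-S, 1778 bp from a TSS, and by 32.7 in Ly75-KO-S in a TSS tile. Among the splicing targets, FGFR2, whose epithelial exon choice depends on the ESRP proteins, had a tile 194 bp upstream of a TSS that was higher by 76.2 points in ShLy75-S and a TSS tile beside it that was higher by 53.4 in Ly75-KO-S. Another FGFR2 tile, 343 bp from a TSS, was lower by 39.6 points in ShLy75-S, and one farther from any TSS was lower by 31.0. CTNND1 and ENAH each had a tile near a TSS that was lower in ShLy75-S (25.5 and 47.3 points lower) and another that was higher in Ly75-KO-S (100 and 94.1 points).

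LY75, the gene targeted in these clones, was hypermethylated in the tile of its TSS by 87.7 points and in the adjoining tile by 70.5 in ShLy75-S. In the mix the same tiles were higher by 42.9 and 30.7 points. Farther into the gene, a tile was lower by 28.5 points in ShLy75-S, and another, 65160 bp from the TSS and the only LY75 tile of the knockout comparison, was lower by 100 in Ly75-KO-S and by 25.6 in the mix. The tables hold no LY75 transcript level, so these tiles do not check the labels.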

How the data were processed

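RRBS libraries of 4 SKOV3 clones were analysed from the tables that the authors deposited. The submitters' processing notes name FastQC, Trim Galore 0.4.1 and Bismark 0.16.1, and the authors compared the libraries with methylKit on hg19 in tiles of 1000 bp. The deposited tables give, for tiles at or above 25 points, a difference in percent methylation, with a p-value and a q-value of that difference (limit 0.01 in the deposited names), which were not used. The smallest accepted coverage and how the 4 libraries were combined in the mix are not given in the sources used here.

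Tiles were assigned to gene spans of GENCODE release 44 lifted to GRCh37, with 5 kb on each side and an overlap of at least 1 bp. Distances run from the nearest tile edge to the TSS. Reachable CpGs lie within 50 bases of either end of a GRCh37 MspI fragment of 40 to 220 bp. Scripts (pandas 2.3.3, scipy 1.17.1, numpy 2.4.6 and matplotlib 3.10.9 under Python 3.11.15) were tested on simulated data. The members and comparison lists were chosen with earlier results of these data known, and no p adjusted over a list is given. Every tile of the 10 genes was counted. From the lists, genes with a tile within 2 kb of a TSS in both single comparisons were named, at most 6 per list, and always CDH1, EPCAM, ZEB1 and LY75. Alternatives were other extensions, overlaps, minimum differences, TSS distances, transcripts and fragment sizes. The groups are the clones as labelled, with 1 library each.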

Additional observations from a re-analysis of the deposited data

How the results depend on the processing

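No paired analysis was possible because each clone has 1 library and the tables hold comparisons alone; for the same reason no replicate could be left out. Of 116 alternative values 82 stayed close to the reported ones (counts and medians within 1.5 times, and medians and shares also within the 95% interval of the reported value), among them all under no extension, 2 kb or 10 kb, under a 500 bp overlap, with basic transcripts, with fragments of 30 to 300 bp and with at least 3 reachable CpGs. Raising the minimum difference changed most counts, as fewer tiles then qualify. At 50 and 70 points the knockdown comparison kept 16 and 9 tiles (medians 72.7 and 93.9), 11 and 6 of them near a TSS. The knockout comparison kept 5 tiles in 3 genes at either limit (median 96.8; 80.0% hypermethylated), 1 of them near a TSS. The mix kept 3 tiles in 3 genes and 2 tiles in 2 genes (medians 76.6 and 87.7; 100% hypermethylated at either limit), with 2 and 1 near a TSS. Tiles in both single comparisons fell from 2 to 1, in the same direction, at either limit, and with the opposite order of subtraction in 1 table the count with the same direction became 0. Within 5 kb in place of 2 kb of a TSS, the knockout comparison had 6 tiles. A stretch of 5 adjacent tiles was found in 1 gene in place of 2. The number of libraries and the unknown coverage limit every value.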

Other observations

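The largest differences among the members were in tiles with few reachable CpGs in several genes. In the knockdown comparison the tiles at 100 points, 1 each in GRHL3 and ESRP2, have 1 and 3 reachable CpGs, and in the knockout comparison the GRHL3 tile at 100 points has 2. The OVOL1 tile at 98.1 points has 2. Against this, the ESRP2 tiles at 97.2 and 93.9 points have 40 and 20 reachable CpGs.

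In EHF the mix gave 98.9 points for the tile at the start of the shorter transcript, above both single comparisons (71.5 and 96.8), and 29.4 points lower for the intronic tile, a smaller difference than in either (67.6 and 37.3 lower). Over the 4250 tiles listed in all tables, the mix lay outside the range of the single comparisons in 913 (21.5%). How the authors combined the libraries was not tested.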
